A study of Homo sapiens with 6 samples.

Results

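HepG2 is a cell line from a human liver tumour. In 6 RNA-seq libraries of this line, 73 loci were chosen by their gene symbols as histones, chromatin modifiers or chromatin remodelers, out of 6357 loci in the deposited table, 4926 of which carry a gene name. The symbols searched for were those of histones, histone deacetylases (HDAC), acetyltransferases (KAT), lysine demethylases (KDM), lysine methyltransferases (KMT, SETD, EZH), arginine methyltransferases (PRMT), remodeler subunits (SMARC, CHD, ARID), bromodomain, CBX, ING and high mobility group (HMG) proteins, SUZ12, EED, and the DNA methylation enzymes (DNMT, TET). Each of the 73 symbols had 1 locus. TET, EED and EZH1 are not listed by name and were not analysed here.

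The 2 groups were unedited HepG2 cells (WT) and HepG2 cells in which FN3K, the kinase that phosphorylates sugars bound to proteins, was knocked out with CRISPR-Cas (KO). Each group had 3 libraries from plates grown in triplicate in medium with serum. How many KO clones were used is not given in the sources used here, so p-values measure the spread between plates and not between clones. The values are FPKM, that is fragments scaled to transcript length and to library size, and the number of reads per library is unknown. FN3K had 27.7, 21.9 and 23.2 FPKM in WT and 0.782, 1.03 and 0.704 FPKM in KO (log2 fold change -3.78, standard error 0.13, limma adjusted p = 1.1e-07). Of 10 hepatocyte markers 8 are listed by name, with a summed level from 7866 to 7985 FPKM in WT and from 14511.5 to 15738 FPKM in KO. None of 7 fibroblast and 5 endothelial markers is listed by name, and of 7 leukocyte markers CD14 is, at 0.446, 1.83 and 2.62 FPKM in WT and 14.3, 13.1 and 16.1 FPKM in KO.

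DNA in the nucleus is wrapped around octamers of the core histones H2A, H2B, H3 and H4, and linker histones of the H1 family bind where the DNA enters and leaves. The bulk of core histone protein is made in S phase from clustered, intronless replication-dependent genes whose mRNAs end in a conserved stem-loop instead of a poly(A) tail, while variant histones are made at all times from polyadenylated mRNAs. Enzymes add or remove acetyl and methyl groups on histone tails, reader proteins bind these marks, and ATP-driven remodelers such as BAF and ISWI slide or evict nucleosomes.

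Because histone mRNAs differ in their ends and the sample labels describe capture on oligo(dT) beads, the stem-loops are shown first. The histone stem-loop, a hairpin of 16 bases with a 4-base loop, was searched on the sense strand of the GENCODE 29 transcript that the table gives for each locus. Matches were found in 6 of 9 replication-dependent histone loci and in 1 of 8 variant and linker histone loci, against 0.0866% of 83129 protein-coding transcripts. The stem is in capitals and the loop in lower case.
HIST1H2AC: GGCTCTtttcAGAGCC
HIST1H2AG: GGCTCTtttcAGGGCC
HIST1H2AI: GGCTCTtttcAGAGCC
HIST1H3H: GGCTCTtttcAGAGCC
HIST2H2AA3: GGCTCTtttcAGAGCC
HIST2H2AA4: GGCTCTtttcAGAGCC
H2AFX: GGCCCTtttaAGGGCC

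Transcripts differed in how far they run past this hairpin. The listed transcript ran on for 1114 bases in HIST1H2AC, 1761 in HIST1H2AG, 769 in HIST1H3H and 1044 in H2AFX. It ended 39 bases after the hairpin in HIST1H2AI and 35 bases after it in HIST2H2AA3 and HIST2H2AA4. No match was found in the listed transcripts of HIST1H1C, HIST1H2AM and HIST1H2BD, 642, 393 and 789 bases long. Each length is a multiple of 3, as for a coding sequence alone, but length does not settle whether the ends are included. The lack of a match therefore says nothing firm about their ends. How well oligo(dT) beads captured each mRNA was not tested.

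Promoters are shown for HIST1H1C, HIST1H3H, HIST1H2AM, H2AFX and H2AFY2, a choice of histone loci called in either direction, because promoters of replication-dependent histones, upregulated or not, share short motifs that the H2AFY2 promoter lacks. Sequences are from RefSeq on GRCh38.p14, from 250 bases before to 50 bases after the gene start, and 63 of the 73 loci were matched to one. Capitals mark 3 motifs on either strand, which are the TATA box as TATAAA, the CCAAT box as its name spells it, and the H1 box of linker histone genes as AAACACA. HIST1H1C is on the minus strand of chr6:26056421-26056720, HIST1H3H on the plus strand of chr6:27809801-27810100, HIST1H2AM on the minus strand of chr6:27893136-27893435, H2AFX on the minus strand of chr11:119095416-119095715 and H2AFY2 on the plus strand of chr10:70052596-70052895.
HIST1H1C: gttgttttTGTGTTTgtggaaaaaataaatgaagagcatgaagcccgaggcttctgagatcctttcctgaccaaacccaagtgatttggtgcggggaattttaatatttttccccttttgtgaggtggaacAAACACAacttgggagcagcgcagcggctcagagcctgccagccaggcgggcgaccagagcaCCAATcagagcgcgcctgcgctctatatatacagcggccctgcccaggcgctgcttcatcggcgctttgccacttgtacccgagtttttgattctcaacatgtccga
HIST1H3H: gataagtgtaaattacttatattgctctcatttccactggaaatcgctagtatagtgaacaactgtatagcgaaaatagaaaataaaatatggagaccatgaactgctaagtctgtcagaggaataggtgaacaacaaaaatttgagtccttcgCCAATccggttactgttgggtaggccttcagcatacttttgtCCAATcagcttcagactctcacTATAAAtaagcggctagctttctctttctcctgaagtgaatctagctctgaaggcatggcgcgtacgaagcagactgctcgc
HIST1H2AM: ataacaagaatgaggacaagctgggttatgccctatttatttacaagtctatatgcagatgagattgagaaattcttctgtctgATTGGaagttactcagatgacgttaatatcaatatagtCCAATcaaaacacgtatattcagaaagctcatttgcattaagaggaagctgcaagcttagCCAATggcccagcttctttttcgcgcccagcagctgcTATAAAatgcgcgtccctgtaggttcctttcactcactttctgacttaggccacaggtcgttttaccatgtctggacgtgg
H2AFX: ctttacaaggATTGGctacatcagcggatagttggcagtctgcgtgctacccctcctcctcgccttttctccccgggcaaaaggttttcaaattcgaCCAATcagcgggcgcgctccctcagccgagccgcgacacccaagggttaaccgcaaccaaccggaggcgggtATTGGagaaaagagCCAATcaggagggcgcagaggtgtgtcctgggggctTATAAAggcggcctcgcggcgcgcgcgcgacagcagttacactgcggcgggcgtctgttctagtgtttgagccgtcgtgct
H2AFY2: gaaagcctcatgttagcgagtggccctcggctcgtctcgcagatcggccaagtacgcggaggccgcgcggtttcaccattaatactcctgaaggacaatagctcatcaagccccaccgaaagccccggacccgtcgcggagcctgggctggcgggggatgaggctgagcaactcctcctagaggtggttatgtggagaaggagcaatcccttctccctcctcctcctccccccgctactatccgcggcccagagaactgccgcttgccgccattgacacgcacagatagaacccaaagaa

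A TATAAA match was present in 8 of 9 replication-dependent histone promoters, 3 of 7 variant and linker histone promoters and 2 of 47 promoters of the other members, against 11.5% of 35116 promoters of the same length. In those 8 promoters a match on the coding strand began between 28 and 32 bases before the gene start. CCAAT was found in 9 of 9, 4 of 7 and 23 of 47 of these promoters, against 34.6% of all. AAACACA occurred in HIST1H1C and in no other histone promoter matched, and in 5.64% of all promoters. The linker histone H1F0 had no matched promoter and was not searched. H1FX was the only other linker histone promoter searched, so the match cannot be called particular to HIST1H1C. These are matches of letters, not tested sites.

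**Figure D1:**
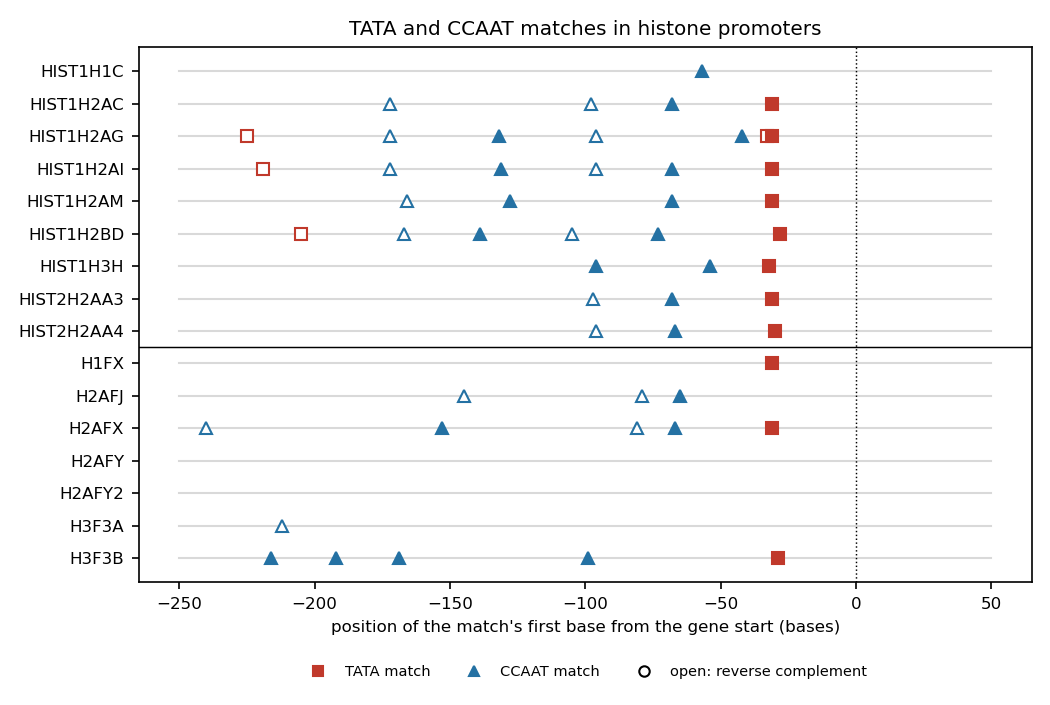
Position of TATAAA matches (squares) and CCAAT matches (triangles) in 16 histone promoters, in bases from the gene start, with open symbols for the reverse complement; the line separates replication-dependent histones (top) from variant and linker histones. In 8 of the 9 upper promoters a TATA match begins between 28 and 32 bases before the start, and H2AFY and H2AFY2 hold neither motif.

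Across the 73 chromatin loci, 11 were upregulated and 26 downregulated in KO cells, and 36 did not pass the test (limma, Benjamini-Hochberg adjusted p under 0.05 over all 6357 loci). Over all loci 21.2% were upregulated and 36.5% downregulated, so the shares of these loci, 15.1% and 35.6%, were near the background and are no result about the set as a whole. Values of the groups did not overlap in 43 of the 73 loci, or 58.9%, against 63.4% of all loci. Their median log2 fold change was -0.17, and that of all loci was -0.14. Of the 73 loci 4, or 5.48%, passed with a log2 fold change beyond 1 in size, against 7.44% of all loci. Among the 37 loci past the test 22, or 59.5%, had a log2 fold change under 0.5 in size, as did 1833 of the 3670 loci past the test in the whole table, or 49.9%. The count of downregulated loci was 16 without WT replicate 3, and fitting each locus alone, with the cumulative library term that Ballgown uses, gave 6 upregulated and 6 downregulated. That fit kept 11 of the 37 calls, namely HIST1H1C, HIST1H2AG, HIST1H2AM, HIST1H3H and H2AFJ as upregulated and H1F0, H2AFY2, HMGA2, HDAC3, PRMT1 and KDM7A as downregulated, and added HDAC1. Of the 37 calls 25 were kept whichever library was left out, and the other 12 (ARID1B, ARID5B, BRD2, BRD3, CBX3, H2AFX, H2AFY, KAT5, KDM3A, SETD2, SETD3 and SUZ12) were lost without at least 1 library, at adjusted p from 0.052 to 0.122. In bulk RNA fewer cells that express a gene and less RNA per cell cannot be told apart.

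The families did not move alike. Of 9 replication-dependent histones 7, or 77.8%, were upregulated and 0 downregulated, against 21.2% and 36.5% of all loci. The 7 include the near-identical copies HIST2H2AA3 and HIST2H2AA4, and the median log2 fold change of the 9 was 0.77. The 55 members that are neither histones nor the histone pseudogene had 2 upregulated and 23 downregulated loci, or 3.64% and 41.8%. Their downregulated share was near that of all loci, and their median was -0.24 against -0.14. Their count of downregulated loci was 14 without WT replicate 3 and 4 with the Ballgown library term, which left 4 upregulated replication-dependent histones. That fit had 606 upregulated and 521 downregulated of all 6357 loci, so the 55 members had no excess of downregulated loci in it. Counts for these 2 groups were not planned ahead. Together the 73 loci took 0.682%, 0.741% and 0.753% of the summed FPKM of the WT libraries and 0.605%, 0.626% and 0.574% of that of the KO libraries.

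**Figure D2:**
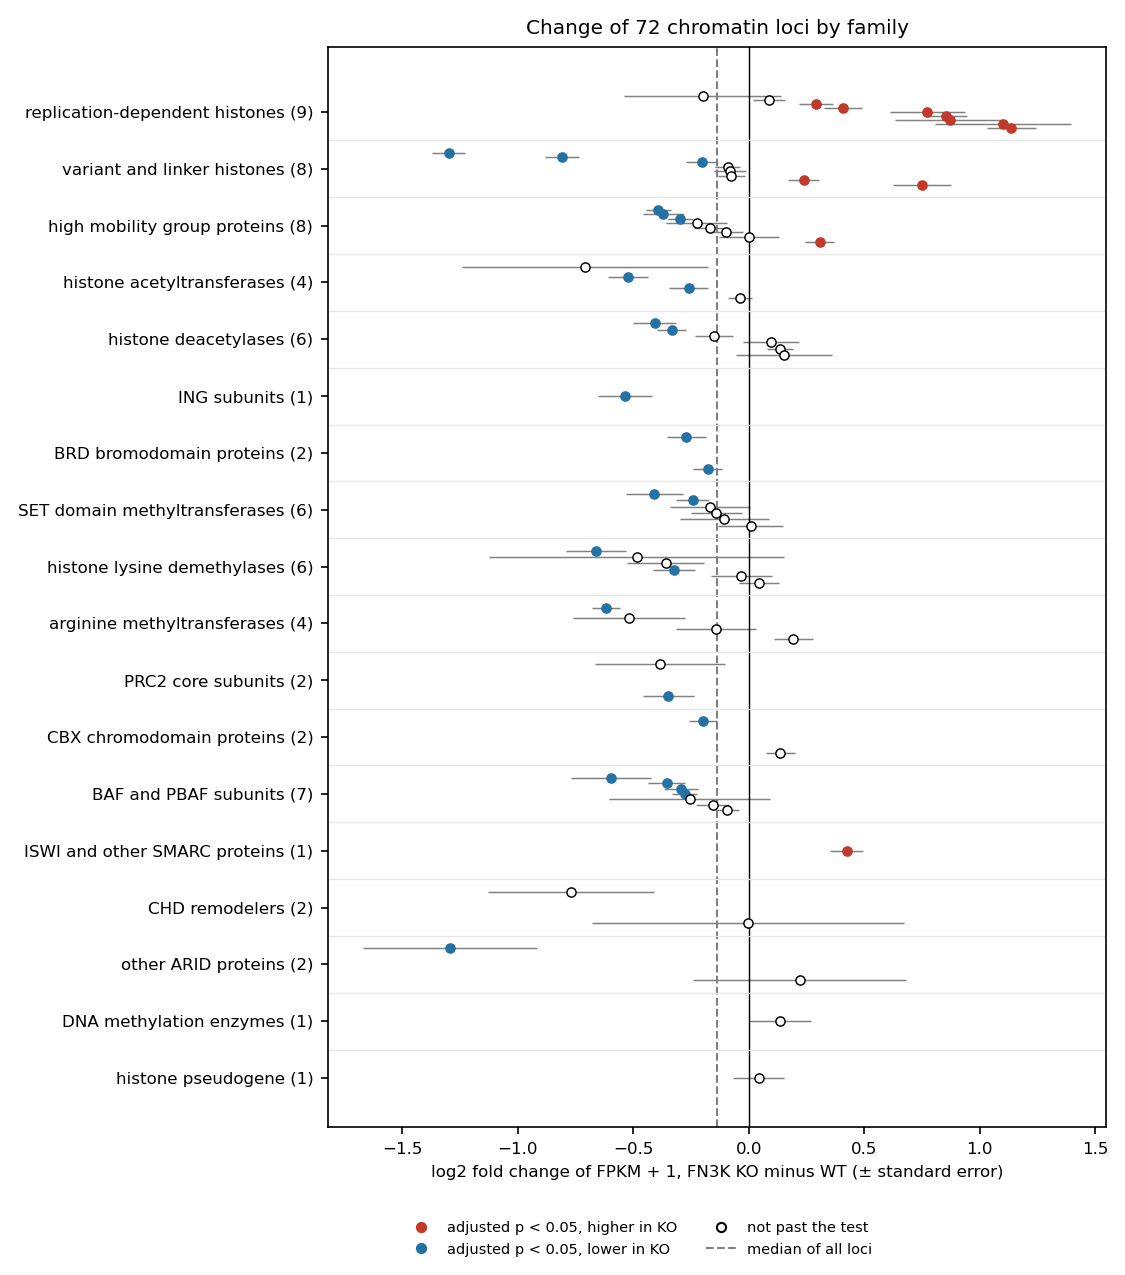
Log2 fold change of FPKM + 1 (KO minus WT, with its standard error) of 72 of the 73 loci, by family, with the number of loci shown in brackets and the median of all loci as a dashed line at -0.14. Red and blue points passed the test and lie mostly right of 0 for replication-dependent histones and left of 0 for the enzyme, reader and remodeler families.

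HIST1H3H and HIST1H2AG had the highest log2 fold changes of the replication-dependent histones, in an order that the pseudocount sets (1.28 and 1.87 with a pseudocount of 0.1). HIST1H3H is a gene for histone H3 (chromosome 6 from 27810064 to 27811300). HIST1H3H had 4.01, 4.64 and 5.08 FPKM in WT and 11.0, 10.6 and 12.1 FPKM in KO. All KO libraries lay above all WT libraries, with a 2.20-fold change on the FPKM + 1 scale (log2 fold change 1.14, standard error 0.11, limma adjusted p = 3.7e-05). Its log2 fold change lay between 1.06 and 1.20 whichever library was dropped.

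HIST1H1C, which codes for the linker histone H1.2 (at 26055787 to 26056428 of chromosome 6), had 16.4, 13.0 and 13.5 FPKM in WT and 27.3, 26.0 and 26.3 FPKM in KO. The KO libraries were close to each other and above the WT range, a 1.81-fold change (log2 fold change 0.86, standard error 0.09, limma adjusted p = 5.9e-05). No 50-base window of its transcript is shared with a transcript of another gene in GENCODE 29, so its reads can be told from those of its relatives.

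The remaining upregulated members of this family code for histone H2A. HIST1H2AG was at 0.449, 0.699 and 0.656 FPKM in WT and at 2.34, 2.41 and 2.53 FPKM in KO (log2 fold change 1.10, standard error 0.29, limma adjusted p = 0.012). At this low WT level the pseudocount of 1 sets much of the size of the fold. HIST1H2AM was at 2.25, 2.14 and 2.07 FPKM in WT and at 4.15, 4.78 and 4.25 FPKM in KO (log2 fold change 0.77, standard error 0.16, limma adjusted p = 0.0034). In both genes the groups were clearly apart and each group was tight. HIST1H2AI spread more within KO, with 7.46, 4.85 and 3.72 FPKM against 2.99, 1.93 and 2.27 FPKM in WT (log2 fold change 0.87, standard error 0.23, limma adjusted p = 0.012).

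HIST2H2AA3 and HIST2H2AA4 are near-identical copies on chromosome 1, from 149842188 to 149842736 and from 149851061 to 149851624. HIST2H2AA3 rose from a WT mean of 9.36 ± 0.209 to 11.7 ± 0.353 FPKM (SD, n = 3), and HIST2H2AA4 from 12.6 ± 0.974 to 17.0 ± 1.20 FPKM (SD, n = 3). Reads cannot be assigned to one of them with confidence, since 100% and 97.1% of their 50-base windows also occur in other genes. The same holds in part for HIST1H2AM, with 86.3% of windows shared and an exon overlap with HIST1H3J, and for HIST1H2AI, with 62.3%.

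The other members of the family did not pass the test. HIST1H2AC, at 20.8 ± 0.869 FPKM in WT and 22.2 ± 1.37 in KO (SD, n = 3), had the highest mean level of the family over the WT libraries. HIST1H2BD, a histone H2B gene, ranged from 1.403 to 3.78 FPKM in WT and from 1.31 to 3.45 FPKM in KO, and its log2 fold change of -0.20 turned to 0.18 with the Ballgown library term. Summed over the 9 loci, FPKM was 72.0, 68.2 and 68.9 in WT and 105.7, 100.6 and 103.4 in KO. HIST2H2AA3 and HIST2H2AA4 enter this sum and the count of 7 upregulated loci separately, though their reads cannot be told apart. The count of 7 held whichever library was dropped, and with the Ballgown library term it was 4.

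Genes of DNA replication and proliferation were set beside these histones. Of 21 S phase and proliferation genes 11 are listed by name, with a median log2 fold change of 0.33. Of the 11 genes 7 were upregulated and 1 downregulated, or 63.6% and 9.09%, against 21.2% and 36.5% of all loci. MCM6, a subunit of the replicative helicase, was at 1.48, 1.72 and 1.71 FPKM in WT and at 7.36, 6.75 and 6.66 FPKM in KO (log2 fold change 1.59, standard error 0.15, limma adjusted p = 3.4e-05). BIRC5, which acts in mitosis, was downregulated (log2 fold change -0.42, standard error 0.11, limma adjusted p = 0.0096). CCNB1, TOP2A and TYMS did not pass the test, with log2 fold changes of -0.21, -0.20 and 0.15, so the list did not move as a whole. The summed level of the 11 genes was from 156.3 to 171.8 FPKM in WT and from 200.9 to 206.3 FPKM in KO. Of 7 factors of histone mRNA processing only SLBP, which binds the stem-loop, is listed by name, and it did not pass the test (log2 fold change -0.09). The part of replication in the histone values was not tested.

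Of 8 variant and linker histones 2 were upregulated and 3 downregulated. These shares, 25% and 37.5%, were near the 21.2% and 36.5% of all loci. H2AFY2 and ARID5B had the lowest log2 fold changes of the 73 loci, in an order that a pseudocount of 0.1 turned (-1.38 and -2.26). H2AFY2 (at 70052796 to 70112280 of chromosome 10, its exons overlapping AIFM2 on the opposite strand) codes for macroH2A2, an H2A variant with a large macro domain that is associated with silent chromatin. H2AFY2 had 24.9, 24.995 and 25.1 FPKM in WT and 9.78, 10.1 and 8.77 FPKM in KO. The WT libraries agreed closely and every KO library lay far below them, a 2.46-fold decrease (log2 fold change -1.30, standard error 0.07, limma adjusted p = 1.7e-06). The decrease of its paralog H2AFY, for macroH2A1, was smaller, from 44.7 ± 3.08 to 38.7 ± 2.20 FPKM (SD, n = 3), and passed the test (limma adjusted p = 0.032) but not after scaling to the 75th percentile, without the variance trend, or without KO replicate 1 or 2 or WT replicate 2 or 3. The ratio of H2AFY to H2AFY2 FPKM was 1.67, 1.80 and 1.90 in WT and 4.09, 3.57 and 4.56 in KO.

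H1F0 (chromosome 22 from 37805093 to 37807436) codes for H1.0, the linker histone that builds up in cells that stop dividing or differentiate. It had the highest level of the 73 loci in both groups, with 434.3, 478.6 and 474.9 FPKM in WT and 253.5, 286.5 and 251.3 FPKM in KO. No KO library reached the WT range, and the decrease was 1.75-fold (log2 fold change -0.81, standard error 0.07, limma adjusted p = 3.1e-05). The third linker histone listed, H1FX, had 100.1 ± 2.14 FPKM in WT and 95.1 ± 5.93 in KO (SD, n = 3) and did not pass the test. The ratio of H1F0 to HIST1H1C was 26.5, 36.8 and 35.2 in WT and 9.27, 11.0 and 9.54 in KO. The 3 linker loci summed to 549.0, 591.2 and 590.9 FPKM in WT and to 369.2, 412.2 and 375.0 FPKM in KO. These ratios and sums were formed after the values were seen and are descriptions. How well oligo(dT) beads captured each linker histone mRNA was not tested, so FPKM of different loci need not reflect their relative abundance.

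H2AFJ (at 14774383 to 14778002 of chromosome 12), an H2A variant described in senescent cells, had 12.01, 16.3 and 17.0 FPKM in WT and 23.4, 28.4 and 25.8 FPKM in KO. Its KO libraries were all above its WT libraries (log2 fold change 0.75, standard error 0.13, limma adjusted p = 0.0011). H2AFX, the variant that is phosphorylated at DNA breaks, went from 39.0 ± 2.40 to 46.2 ± 2.77 FPKM (SD, n = 3), or 0.24 on the log2 scale (limma adjusted p = 0.014), and lost its call without KO replicate 3 or WT replicate 2. H3F3A and H3F3B, which both code for histone H3.3, had the highest FPKM of the core histone loci, whose capture on oligo(dT) beads was not tested. They were at 121.5 ± 6.52 and 91.6 ± 4.99 FPKM in WT and 115.0 ± 8.84 and 85.8 ± 0.909 in KO (SD, n = 3), and neither passed the test. The pseudogene H3F3AP4 was at 20.5 ± 1.73 FPKM in WT and 21.3 ± 3.22 in KO (SD, n = 3), and 100% of its windows are shared with H3F3A and other copies.

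**Figure D3:**
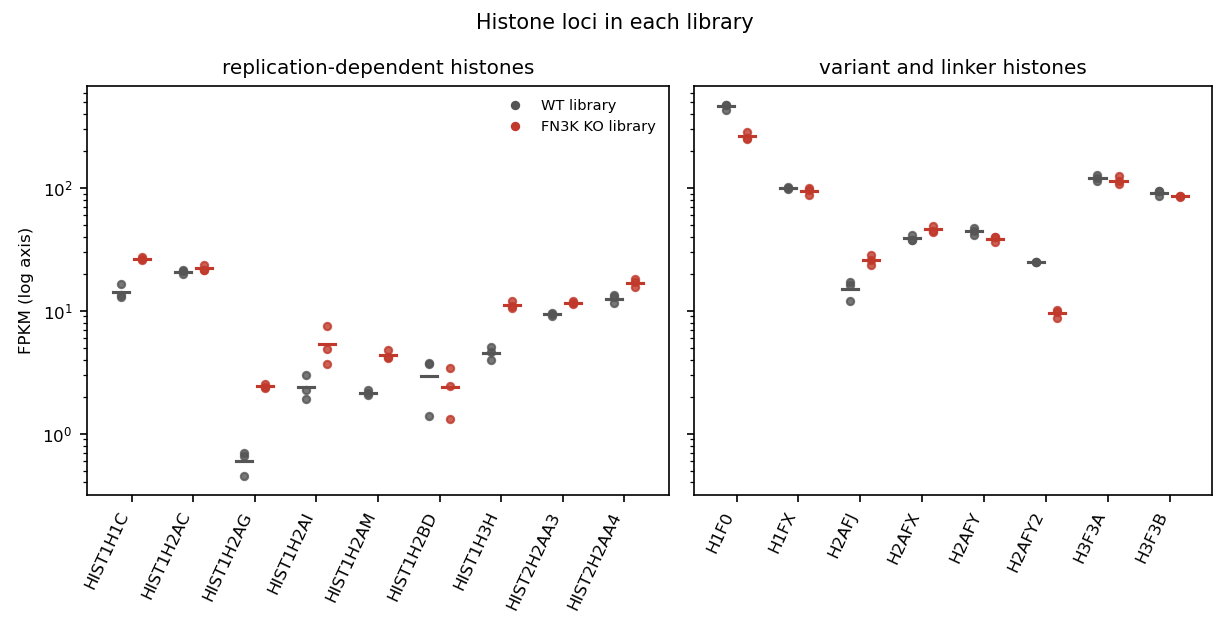
FPKM on a log axis of 9 replication-dependent and 8 variant and linker histone loci, with a point for each of 3 WT (grey) and 3 KO (red) libraries and a bar at the group mean. Points of the groups are apart for HIST1H1C, HIST1H3H, H1F0 and H2AFY2 and mixed for HIST1H2BD and H3F3A.

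High mobility group proteins bind nucleosomes or bend DNA without being histones, and of 8 such loci 1 was upregulated and 3 downregulated. These shares were 12.5% and 37.5%, against 21.2% and 36.5% of all loci. HMGA2, an AT-hook protein of embryonic and tumour cells, had 32.4, 31.9 and 32.9 FPKM in WT and 23.7, 25.2 and 24.6 FPKM in KO, with no overlap (log2 fold change -0.39, standard error 0.05, limma adjusted p = 3.9e-04). HMGA1 was more abundant, at 144.9 ± 8.67 FPKM in WT and 129.1 ± 9.16 in KO (SD, n = 3). Its adjusted p was 0.064, but it passed as downregulated without KO replicate 2. Within the HMGN family of nucleosome binders HMGN1 was downregulated (57.1 ± 2.56 to 46.3 ± 0.968 FPKM, SD, n = 3) and HMGN3 upregulated, from 20.4, 22.0 and 21.9 FPKM to 27.8, 27.1 and 25.3 FPKM (log2 fold change 0.31, standard error 0.06, limma adjusted p = 0.0033). Neither HMGN1 nor HMGN3 passed with the Ballgown library term. HMGB2, a DNA-bending protein, was downregulated (log2 fold change -0.37), while HMGB1, HMGN2 and HMGN4, with log2 fold changes from -0.23 to 0.00, did not pass.

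Of 4 acetyltransferases 2, or 50%, were downregulated and 0 upregulated, against 36.5% and 21.2% of all loci. The 1 ING locus and 2 BRD loci were downregulated. None of these calls was kept with the Ballgown library term. KAT8, the acetyltransferase MOF that acts on histone H4, had 21.2, 22.4 and 24.5 FPKM in WT and 14.1, 15.2 and 17.2 FPKM in KO (log2 fold change -0.52, standard error 0.09, limma adjusted p = 9.9e-04). KAT5, the acetyltransferase TIP60, was also downregulated (log2 fold change -0.26, standard error 0.08, limma adjusted p = 0.027), a call lost without any 1 of 5 libraries (all but WT replicate 1). KAT2A, the catalytic subunit of SAGA, had the highest level of the 4 KAT loci and differed little, at 44.3 ± 1.30 FPKM in WT and 43.2 ± 1.45 in KO (SD, n = 3). ING5, a reader subunit of acetyltransferase complexes, had 7.73, 8.36 and 7.99 FPKM in WT and 5.31, 6.02 and 4.45 FPKM in KO, so the groups were apart (log2 fold change -0.53, standard error 0.12, limma adjusted p = 0.0046). BRD2 and BRD3, BET proteins that bind acetylated histones, had log2 fold changes of -0.18 and -0.27 and passed. BRD2 lost its call after scaling to the 75th percentile, without the variance trend, and without any library but KO replicate 2, and BRD3 without KO replicate 1 or WT replicate 2 or 3.

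Of 6 deacetylases 2, or 33.3%, were downregulated, against 36.5% of all loci. HDAC5 had 15.5, 14.0 and 12.3 FPKM in WT and 10.4, 10.5 and 9.76 FPKM in KO (log2 fold change -0.41, standard error 0.09, limma adjusted p = 0.0053). HDAC3, the enzyme of the NCoR corepressor, went from 23.4 ± 1.03 to 18.3 ± 0.624 FPKM (SD, n = 3). HDAC1, the most abundant, was at 38.7, 41.3 and 41.7 FPKM in WT and at 42.7, 46.3 and 44.9 FPKM in KO. Its groups did not overlap, but its adjusted p was 0.071, and it passed with a log2 fold change of 0.18 after scaling to the 75th percentile. HDAC2, HDAC6 and HDAC11 did not pass, with log2 fold changes from -0.15 to 0.15.

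Among 16 SETD, KMT, KDM and PRMT loci, which add or remove methyl groups, 5 were downregulated, a share of 31.2% against 36.5% of all loci, and 0 were upregulated. PRMT1 (chromosome 19 from 49675786 to 49689029), which makes most asymmetric dimethylarginine in cells, had 71.4, 70.2 and 74.0 FPKM in WT and 46.0, 43.7 and 49.7 FPKM in KO. Every KO library was far below the WT range, a 1.54-fold decrease (log2 fold change -0.62, standard error 0.06, limma adjusted p = 4.7e-05). PRMT5, which makes symmetric dimethylarginine, was at 29.2, 36.6 and 33.6 FPKM in WT and at 39.6, 38.1 and 36.1 FPKM in KO and did not pass (limma adjusted p = 0.074), but it passed as upregulated after scaling to the 75th percentile and without WT replicate 2.

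KDM7A, a JmjC demethylase of histone H3, had 5.27, 5.53 and 5.25 FPKM in WT and 3.05, 3.02 and 2.97 FPKM in KO, a tight decrease (log2 fold change -0.66, standard error 0.13, limma adjusted p = 0.0025). KDM3A, another JmjC enzyme, was at 11.2 ± 0.351 FPKM in WT and 8.74 ± 0.880 in KO (SD, n = 3; limma adjusted p = 0.014), a call lost without WT replicate 3. SETD2, which methylates histone H3 along transcribed genes, went from 6.27 ± 0.228 to 4.499 ± 0.608 FPKM (SD, n = 3), and SETD3, a methyltransferase of actin, from 18.6 ± 1.05 to 15.5 ± 0.718 FPKM (SD, n = 3). Both lost their call without KO replicate 1 or WT replicate 3, and SETD3 also without WT replicate 2. The other 11 loci of these families did not pass, with log2 fold changes from -0.52 for PRMT3 to 0.19 for PRMT5.

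Polycomb proteins keep genes silent through histone methylation and ubiquitylation. SUZ12, a core subunit of Polycomb repressive complex 2, had 6.27, 6.39 and 6.92 FPKM in WT and 5.03, 5.30 and 4.44 FPKM in KO (log2 fold change -0.35, standard error 0.11, limma adjusted p = 0.026), a call lost without WT replicate 2 or 3 or KO replicate 1 or 3. Its catalytic partner EZH2 was spread more widely, at 1.92, 4.82 and 3.47 FPKM in WT and 2.01, 1.83 and 3.01 FPKM in KO, and did not pass (limma adjusted p = 0.27). CBX3 and CBX1 code for heterochromatin proteins, which bind methylated histone H3. CBX3 was downregulated (log2 fold change -0.20, limma adjusted p = 0.020) but not without KO replicate 1 or WT replicate 2 or 3, and CBX1 did not pass, at 15.9 ± 0.592 FPKM in WT and 17.6 ± 0.220 in KO (SD, n = 3), except after scaling to the 75th percentile, where it was upregulated. DNMT1, the maintenance DNA methyltransferase, was at 4.98, 4.29 and 5.05 FPKM in WT and 4.6003, 6.03 and 5.44 FPKM in KO, with overlapping groups.

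All 7 loci of the BAF and PBAF remodelers had a lower mean in KO, as did 62.0% of all loci. Of the 7 loci 4, or 57.1%, passed the test as downregulated, against 36.5% of all loci. SMARCC2, which did not pass, varied widely between libraries, and its log2 fold change turned to 0.098 without WT replicate 1. SMARCB1, a core subunit and a tumour suppressor, had 68.0, 64.1 and 68.1 FPKM in WT and 52.5, 54.8 and 57.4 FPKM in KO (log2 fold change -0.28, standard error 0.06, limma adjusted p = 0.0028). ARID1B, a DNA-binding subunit, was tight in WT at 7.44, 7.22 and 7.33 FPKM and spread in KO at 4.63, 6.00 and 3.25 FPKM (log2 fold change -0.60, standard error 0.17, limma adjusted p = 0.016), and lost its call without WT replicate 3. SMARCC1 and SMARCD1 passed at -0.36 and -0.29, and SMARCD2, SMARCE1 and SMARCC2, from -0.25 to -0.09, did not. With the Ballgown library term 0 of the 7 passed the test.

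SMARCA1 (chromosome X from 129446501 to 129523500), the ISWI ATPase SNF2L, was upregulated. Its levels were 45.6, 40.2 and 38.0 FPKM in WT and 55.2, 57.3 and 54.1 FPKM in KO, with no overlap (log2 fold change 0.42, standard error 0.07, limma adjusted p = 0.0011), but it too did not pass with the Ballgown library term, where its log2 value was 0.29. The ratio of SMARCB1 to SMARCA1 FPKM was 1.49, 1.60 and 1.79 in WT and 0.951, 0.955 and 1.06 in KO. ARID5B, a DNA-binding partner of a histone demethylase, had 3.43, 3.97 and 1.93 FPKM in WT and 0.222, 1.55 and 0.403 FPKM in KO (log2 fold change -1.29, standard error 0.38, limma adjusted p = 0.016), and lost its call without WT replicate 1 or 2.

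**Figure D4:**
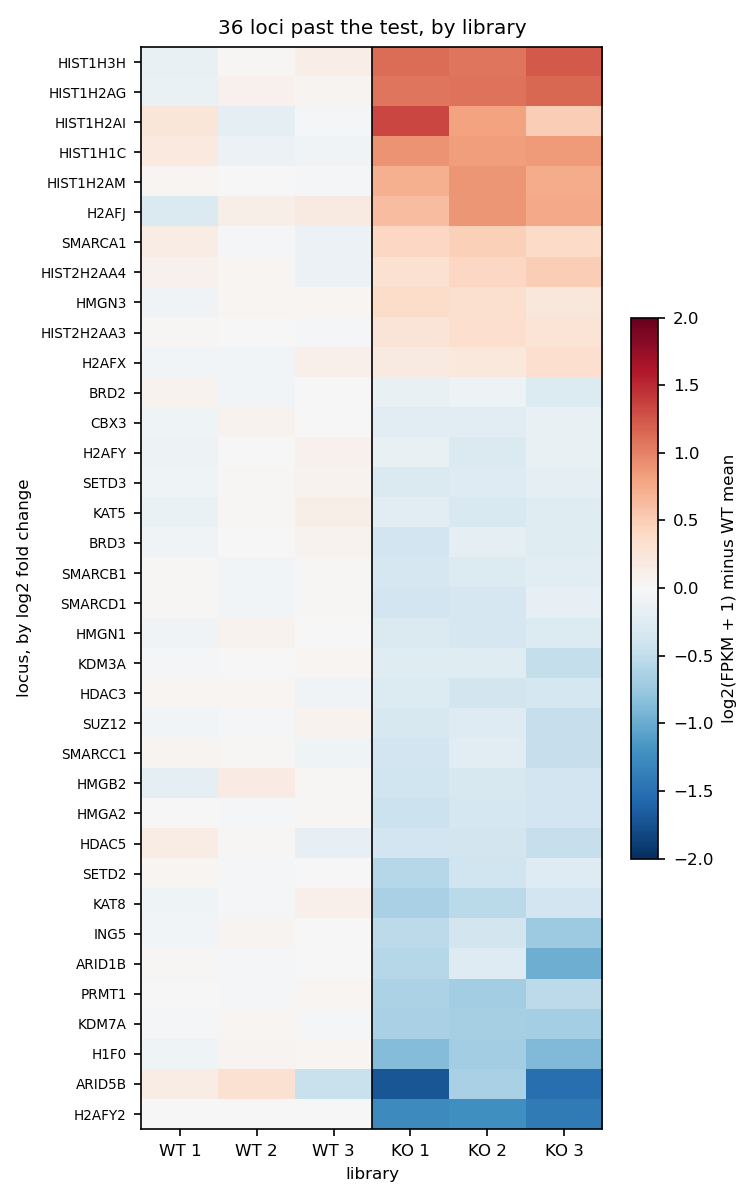
Log2(FPKM + 1) of 36 of the 37 loci past the test in each library, minus the mean of the 3 WT libraries, ordered by log2 fold change with the highest at the top. The 11 upregulated rows are led by HIST1H3H, and the 25 downregulated rows end in ARID5B, which varies between KO libraries, and H2AFY2, which does not.

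Some members were too variable to compare. CHD8 (0.248, 4.21 and 1.17 FPKM in KO, 1.48, 4.45 and 0.0507 FPKM in WT), KDM2A, ARID5A, KAT6B and SMARCC2, with means under 5 FPKM, ranged over 3-fold between the WT libraries, and KAT6B is listed at 0 in KO replicate 3. None of these 5 passed the test. For the levels as a whole, H1F0, HMGA1, H3F3A, H1FX and H3F3B took the first 5 places in that order in both groups, while H2AFY2 was at place 21 in WT and 42 in KO, and SMARCA1 at place 13 in WT and 6 in KO. HMGA1 and H3F3A in KO, at 129.1 and 115.0 FPKM, lay closer than their spread would separate with confidence.

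Genes that work with these proteins were taken from lists drawn up with earlier results of these data known. Of 74 partner genes listed by name (acetyltransferase complexes, corepressors, methyltransferase partners, Polycomb and remodeler subunits) 2 were upregulated and 39 downregulated, or 2.70% and 52.7% against 21.2% and 36.5% of all loci, with a median log2 fold change of -0.33. With the Ballgown library term 0 of the 74 were upregulated and 5 downregulated, against 606 and 521 of all 6357 loci. In that fit the downregulated share of the partner genes was no longer above that of all loci. Among 22 partners of acetyltransferases 13, or 59.1%, were downregulated and 1, MEAF6 (log2 fold change 0.26), was upregulated. CREBBP, an acetyltransferase coactivator, had 10.4, 9.61 and 10.1 FPKM in WT and 5.82, 6.94 and 5.36 FPKM in KO (log2 fold change -0.65, standard error 0.11, limma adjusted p = 8.9e-04), and its paralog EP300 had a log2 fold change of -0.36 (limma adjusted p = 0.020) and lost its call without KO replicate 1 or 3 or WT replicate 1.

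Of 12 corepressor and NuRD subunits 9, or 75%, were downregulated and 0 upregulated, against 36.5% and 21.2% of all loci. SIN3B, a scaffold of deacetylase complexes, had 3.08, 0.923 and 1.74 FPKM in WT and is listed at 0, 0 and 0.510 FPKM in KO, and its call was lost without 4 of the 6 libraries in turn. Among 21 remodeler subunits 11, or 52.4%, were downregulated and 1 was upregulated. BCL7A of the BAF complex was lowest (4.595, 4.19 and 5.84 FPKM in WT, 0.365, 2.24 and 0.315 FPKM in KO). The upregulated gene was INO80C (log2 fold change 0.69, standard error 0.10, limma adjusted p = 5.4e-04). Of 9 other Polycomb genes 3, or 33.3%, were downregulated, among them PHC2 (log2 fold change -0.52, standard error 0.07, limma adjusted p = 3.8e-04), and of 10 methyltransferase partners and other lysine methyltransferases 3, or 30.0%, among them PSIP1 (log2 fold change -0.63, standard error 0.18, limma adjusted p = 0.015), a call lost without KO replicate 1 or WT replicate 2 or 3. No gene of these 3 groups of corepressor, Polycomb and methyltransferase genes was upregulated. The downregulated shares of the Polycomb and methyltransferase groups were below the 36.5% of all loci.

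**Figure D5:**
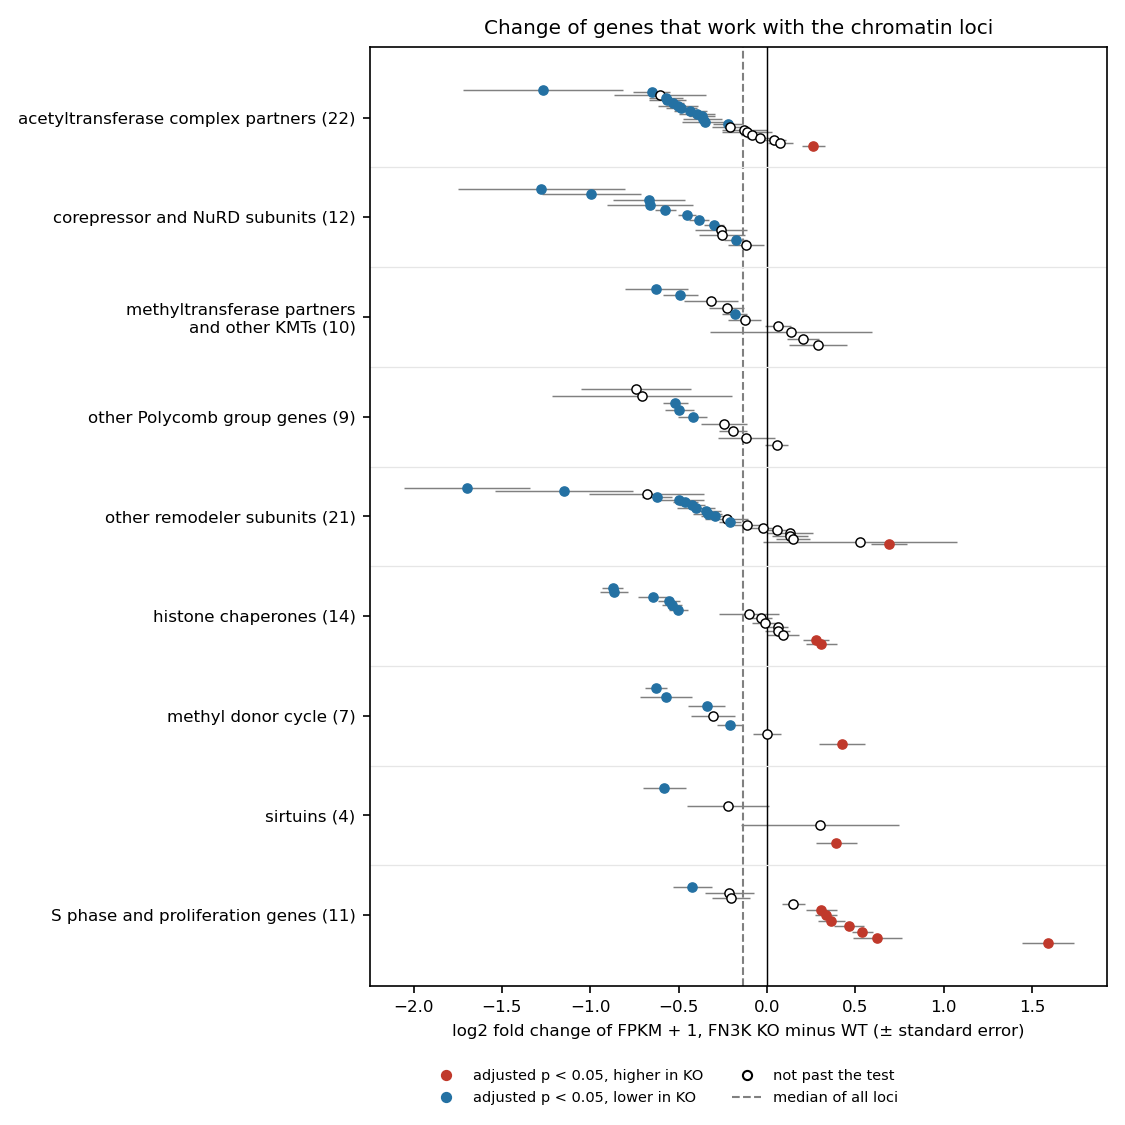
Log2 fold change of FPKM + 1 (KO minus WT, with its standard error) of listed genes that work with chromatin or supply it. The number listed by name is in brackets, and the dashed line is the median of all loci. Of the 5 upper lists, 2 genes in all are upregulated, MEAF6 and INO80C, while 7 of 11 S phase and proliferation genes are upregulated.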

How the data were processed

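Per the labels, RNA was captured on oligo(dT) beads and sequenced from 3 WT and 3 FN3K KO plates of HepG2 cells. The authors mapped the reads with HISAT2 and assembled and quantified transcripts with StringTie 2.0.6, on GRCh38.p5 as the submitters' processing notes name it, and deposited FPKM per assembled locus. The filter on loci and the strand setting are not given in the sources used here, so overlapping or antisense genes could share reads with 28 of the 73 loci.

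log2(FPKM + 1) was compared in R 4.3.3 with limma 3.58.1 (eBayes with a variance trend) over all 6357 loci, with Benjamini-Hochberg adjusted p-values. The pseudocount of 1 understates folds of loci with low FPKM. Calls rest on an adjusted p under 0.05. The script was tested on simulated data. An exact permutation test of 3 against 3 libraries cannot go below p = 0.10.

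Positions, 50-base windows and stem-loops came from GENCODE 29 (GRCh38), matched by transcript identifier, and promoters from RefSeq. The members and lists were chosen with earlier results of these data known. Named genes were the 12 members at each end of the log2 fold changes among those past the test with a mean of at least 1 FPKM and no overlap, the most abundant member of each family, PRC2 and DNMT loci, the called extremes of each list, and FN3K. The other members and EP300 were named after their values were seen, and 1 member, included in the counts, is not reported here by name. Alternatives changed the pseudocount (to 0.1), required a mean of at least 1 FPKM, set the 75th percentile equal, dropped the variance trend, fitted each locus alone with the cumulative library term of Ballgown, added a replicate block, or left out each library. Python 3.11.15 with pandas 2.3.3 and matplotlib 3.10.9 was used.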

Additional observations from a re-analysis of the deposited data

How the results depend on the processing

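The counts of upregulated and downregulated members, 11 and 26, did not move by over 1.5 times with the 75th percentile set equal, a pseudocount of 0.1, no variance trend or a required mean of 1 FPKM. With the Ballgown library term, fitted locus by locus, 6 members were upregulated and 6 downregulated, of which 5 and 6 were among the main calls, so 26 of the 37 calls were lost. That model gave 606 and 521 over all loci, 0 and 5 over the partner genes, 4 upregulated replication-dependent histones, 0 downregulated BAF and PBAF subunits and 4 downregulated members other than histones. With 1 library left out in turn, from 16 to 28 members were downregulated, the lowest without WT replicate 3, and from 14 to 25 members other than histones. The replicate number paired no libraries, since deviations from the group means correlated at 0.0096, 0.0061 and 0.0458 between libraries of the same number. With the replicate block 11 members were upregulated and 25 downregulated, without SUZ12. Some members outside the main calls passed as downregulated when 1 library was left out. These were HMGA1, HMGN4 and PRMT3 without KO replicate 2, and CHD1, H3F3B, KDM5C and PRMT2 without WT replicate 1.

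Directions turned in members that did not pass the test. With the Ballgown library term log2 fold changes became 0.28 for CHD8, 0.011 for H1FX, 0.018 for H3F3A, 0.0020 for H3F3B, 0.18 for HIST1H2BD, 0.021 for HMGN4, 1.08 for KDM2A, 0.026 for KDM5C, -0.078 for KMT2E, 0.11 for KMT5A, 0.36 for PRMT2 and 0.078 for SETD5. A common 75th percentile gave 0.0053 for CHD8, 0.0084 for KAT2A and 0.0048 for KDM5B, and a pseudocount of 0.1 gave 0.27 for CHD8. With 1 library left out, values lay between -0.14 and 0.68 for ARID5A, -0.61 and 0.58 for CHD8, -0.049 and 0.16 for H3F3AP4, -0.52 and 0.053 for HIST1H2BD, -0.16 and 0.090 for HMGN2, -1.09 and 0.14 for KDM2A, -0.067 and 0.0094 for KDM5B, -0.033 and 0.054 for KMT2E, -0.25 and 0.0047 for SETD1B, and -0.54 and 0.10 for SMARCC2. The causes were not tested. Depth is unknown, so no detection limit can be given.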

Other observations

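Histone chaperones carry histones to and from DNA. Of 14 listed by name 6 were downregulated and 2 upregulated, or 42.9% and 14.3%, against 36.5% and 21.2% of all loci. Their median log2 fold change was -0.07. NPM3, a nucleoplasmin family chaperone, had 46.1, 48.9 and 51.5 FPKM in WT and 26.7, 25.3 and 26.5 FPKM in KO, with groups far apart (log2 fold change -0.87, standard error 0.06, limma adjusted p = 6.4e-06). MCM2, a helicase subunit that also binds histones, was upregulated (log2 fold change 0.31, standard error 0.09, limma adjusted p = 0.014), a call lost without WT replicate 3, and is also one of the S phase genes counted before. UHRF1, which brings DNMT1 to newly copied DNA, had 2.77, 1.52 and 2.45 FPKM in WT and 5.06, 7.74 and 6.98 FPKM in KO (log2 fold change 1.23, standard error 0.21, limma adjusted p = 0.0011), while DNMT1 itself did not pass the test. It is 1 of 2 genes listed by name among 8 readers of methylated DNA.

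Of 7 listed genes of the methyl donor cycle, which supplies methyl groups to methyltransferases, 4 were downregulated and 1 upregulated. These shares of a short list were 57.1% and 14.3%, against 36.5% and 21.2% of all loci. The mitochondrial enzyme SHMT2 had 131.3, 144.0 and 147.6 FPKM in WT and 95.3, 90.8 and 86.4 FPKM in KO (log2 fold change -0.63, standard error 0.06, limma adjusted p = 5.6e-05). Its cytosolic counterpart SHMT1 was upregulated (log2 fold change 0.42, standard error 0.13, limma adjusted p = 0.020), a call lost without KO replicate 1 or WT replicate 3. Of 4 sirtuins listed by name, which are deacetylases that use NAD, SIRT1 was downregulated (7.01, 7.19 and 7.24 FPKM in WT, 4.43, 5.11 and 3.87 FPKM in KO, limma adjusted p = 0.0032) and SIRT2 upregulated (log2 fold change 0.39, limma adjusted p = 0.017), a call lost without KO replicate 2 or 3 or WT replicate 3. Among the hepatocyte markers TTR had a log2 fold change of 2.90 and HNF4A one of -0.35 (limma adjusted p = 6.6e-04).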
